A study of Mus musculus with 6 samples.

Results

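The 9 genes described here encode the cyclins that drive passage through G1 and into S phase, the kinases that these cyclins bind, and a phosphatase that switches those kinases on. They are the D-type cyclins Ccnd1, Ccnd2 and Ccnd3, the kinases Cdk4 and Cdk6, the E-type cyclins Ccne1 and Ccne2, the kinase Cdk2 and the phosphatase Cdc25a. All 9 were found by their NCBI gene number among the 17254 genes listed in any library, and all 9 were among the 11717 genes with a mean FPKM (a level corrected for transcript length and library size) of 1 or more over the 6 libraries, which were the genes tested.

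RNA-seq was done on cultured murine neural stem and progenitor cells (NSPCs) to ask how an oxidant and an antioxidant alter their transcriptome. The cells were an immortalized Ink/Arf-/- culture derived from neonates, a mixed population grown in N2 medium with EGF and bFGF. Each of 3 groups had 2 libraries: mock-treated control, the pro-oxidant paraquat (PQ) and the antioxidant N-acetylcysteine (NAC), all collected after 48 h. Paraquat was given at 5 µM and NAC at 5 mM, although the labels state a dose for PQ 1 alone.

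Control 1 and PQ 1 were labelled C57BL/6 and "Ink/Ark knockout" in the labels' spelling, with RNA taken on a column kit. Control 2, PQ 2, NAC 1 and NAC 2 carried no genotype label, and their RNA was taken with TRIZOL and read on a BGISEQ-500. Below, column kit and TRIZOL stand for these groups of libraries, whose processing notes also differed. Both NAC libraries were TRIZOL libraries, while control and PQ each had 1 library of either kind. In comparisons with NAC, treatment and these differences therefore cannot be fully told apart. Library totals ran from 9680436 to 10698241 rounded expected counts. Cdkn2a, the gene at the Ink/Arf locus, had 137 and 162 counts in control 1 and 2, 120 and 130 in PQ 1 and 2, and 130 and 131 in NAC 1 and 2. No library was at 0 for it, and counts for a whole gene do not tell which exons the reads came from.

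Cyclins D and E are the regulatory subunits through which growth factor signals reach the cell cycle. D-type cyclins bind CDK4 or CDK6 and begin the phosphorylation of the retinoblastoma protein, which releases E2F factors, and cyclin E with CDK2 then completes it and helps origins of replication to fire. In neural progenitors the length of G1 and the choice of D-type cyclin are tied to the balance between renewal and differentiation.

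In PQ-treated cells 3 of the 9 genes fell against control by edgeR, Ccnd2, Ccne2 and Cdk4, with 2 lower by DESeq2 and 1 by limma. The edgeR count was smaller without PQ 1, PQ 2 or control 2, and without either PQ library fewer of all genes tested fell as well. The 3 genes stood in a transcriptome where 9.45% of the genes tested fell and 9.76% rose. No gene of the 9 rose by edgeR's quasi-likelihood test, and the count was 0 as well at an unadjusted p under 0.05, by DESeq2 and by limma. In NAC-treated cells Ccne2 rose and Ccnd2 fell, beside 9.01% of all genes tested that rose and 9.64% that fell. Between PQ and NAC, Ccne2, Cdk2 and Cdk4 were lower in PQ, where 15.7% of all genes tested were lower and 16.0% were higher. No gene of the 9 was higher in PQ than in NAC by edgeR, with 0 again at an unadjusted p under 0.05, by DESeq2 and by limma. With 9 genes, each of these counts is a description, and the 3 comparisons share libraries.

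No label says that the libraries of a group came from separate cultures, so the p-values measure the spread between libraries only. In bulk RNA, fewer cells of a type and less RNA per cell cannot be told apart. Adjusted p-values below come from the quasi-likelihood test of edgeR, with the Benjamini-Hochberg (BH) method run over the 11717 genes. CPM, the count relative to library size, was scaled by the trimmed mean of M values (TMM), and FPKM was used where genes were compared with each other.

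Per transcript length, the levels of the 9 genes lay far apart. Mean FPKM in control cells was 982 ± 23.9 (SD, n = 2) for Ccnd1, 323 ± 18.8 for Cdk4 and 80.4 ± 0.226 for Ccnd2. These 3 kept this order in each of the 6 libraries. The next level was held by Cdk2 (27.1 ± 5.52) and Ccnd3 (22.6 ± 6.96), which lay within each other's spread. Ccne2 (16.2 ± 2.32), Ccne1 (10.3 ± 2.26), Cdk6 (7.63 ± 0.417) and Cdc25a (6.00 ± 0.403) followed. Over the 6 libraries the ranges of Cdk2 and Ccnd3, of Ccnd3 and Ccne2, of Ccne2 and Ccne1, and of Ccne1 and Cdk6 overlapped, whereas Cdc25a at 5.52 to 6.74 lay below Cdk6 at 7.33 to 9.22.

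**Figure D1:**
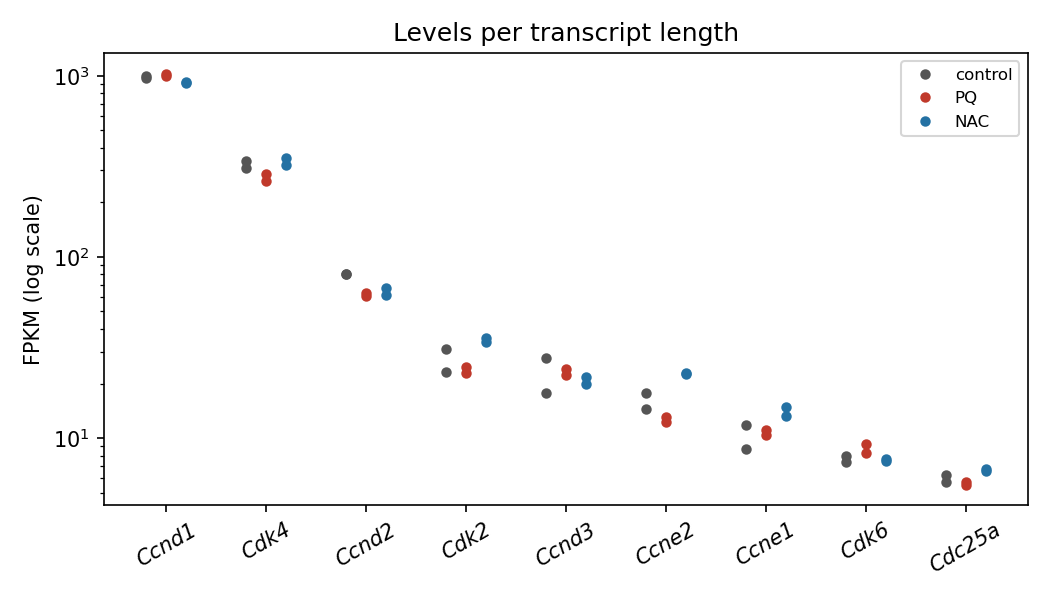
FPKM (log scale) of the 9 genes in each of the 6 libraries, ordered by mean, with control in grey, PQ in red and NAC in blue and 1 point per library. Ccnd1 is the highest and Cdc25a the lowest of the 9 in each library.

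Ccnd1 encodes cyclin D1, the D-type cyclin most directly induced by mitogens (NCBI gene 12443, chr7:152115836-152125774 on the minus strand of mm9). It measured 3782 and 3874 CPM in control 1 and 2, 3897 and 3843 in PQ 1 and 2, and 3457 and 3457 in NAC 1 and 2. The PQ libraries overlapped the controls, and both NAC libraries lay below all 4 of the others. The log2 fold change was 0.02 (SE 0.08) for PQ and -0.15 (SE 0.08) for NAC against control, neither past the threshold (edgeR quasi-likelihood test, BH-adjusted p = 0.923 and 0.233). PQ against NAC gave 0.16 (SE 0.08, edgeR quasi-likelihood test, BH-adjusted p = 0.14).

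Among all genes, Ccnd1 ranked between 32 and 41 by FPKM, and it took up 0.375% of all counts in control cells, 0.386% in PQ and 0.350% in NAC. It made up 90.8% and 90.3% of the summed D-type FPKM in control 1 and 2, 92.4% and 92.1% in PQ 1 and 2, and 91.8% and 91.2% in NAC 1 and 2. Each PQ library had a higher Ccnd1 share than each control. The Ccnd1 level itself did not pass the test, and the Ccnd2 share was lower, as given next.

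Ccnd2 encodes cyclin D2, a further D-type cyclin of neural progenitors (NCBI gene 12444, chr6:127075797-127101066, minus strand, mm9). Its level was 482 and 475 CPM in control 1 and 2, 354 and 370 in PQ 1 and 2, and 354 and 383 in NAC 1 and 2. Both controls lay above all 4 treated libraries, and the PQ and NAC libraries overlapped. Ccnd2 fell in both treatments, at log2 fold changes of -0.40 with PQ (SE 0.09, edgeR quasi-likelihood test, BH-adjusted p = 0.00359) and -0.37 with NAC (SE 0.09, edgeR quasi-likelihood test, BH-adjusted p = 0.00536). Both comparisons used the same control libraries. PQ against NAC gave -0.03 (SE 0.09, edgeR quasi-likelihood test, BH-adjusted p = 0.85).

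Within the column-kit pair, PQ 1 minus control 1 was -0.44 in log2 CPM of Ccnd2, and within the TRIZOL libraries PQ 2 minus control 2 was -0.36. NAC 1 and NAC 2 minus control 2, also within TRIZOL, were -0.42 and -0.31. The Ccnd2 share of summed D-type FPKM was 7.41% ± 0.230 (SD, n = 2) in control, 5.66% ± 0.225 in PQ and 6.40% ± 0.325 in NAC, without overlap between the groups. The Ccnd2 fall in PQ missed the threshold without PQ 1 (log2 fold change -0.37), and that in NAC without NAC 1 (-0.32).

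Ccnd3 encodes cyclin D3 (NCBI gene 12445, chr17:47642000-47736632, plus strand, mm9). It measured 36.0 and 55.5 CPM in control 1 and 2, 47.2 and 44.8 in PQ 1 and 2, and 39.4 and 42.4 in NAC 1 and 2. Control 2 was 1.54 times control 1, and the 4 treated libraries lay between them. The log2 fold change was 0.01 (SE 0.15) for PQ and -0.16 (SE 0.15) for NAC against control (edgeR quasi-likelihood test, BH-adjusted p = 0.984 and 0.496), and 0.17 (SE 0.15) for PQ against NAC (edgeR quasi-likelihood test, BH-adjusted p = 0.416). Against control its direction differed between alternatives, and for PQ it was reversed without control 1 and without PQ 1. Without control 1, Ccnd3 fell in NAC at a log2 fold change of -0.44, and without control 2 the value was 0.18. PQ against NAC was above 0 in each alternative. Ccnd3 held 1.66% and 2.49% of the summed D-type FPKM in control 1 and 2, and between 2.01% and 2.15% in the treated libraries.

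**Figure D2:**
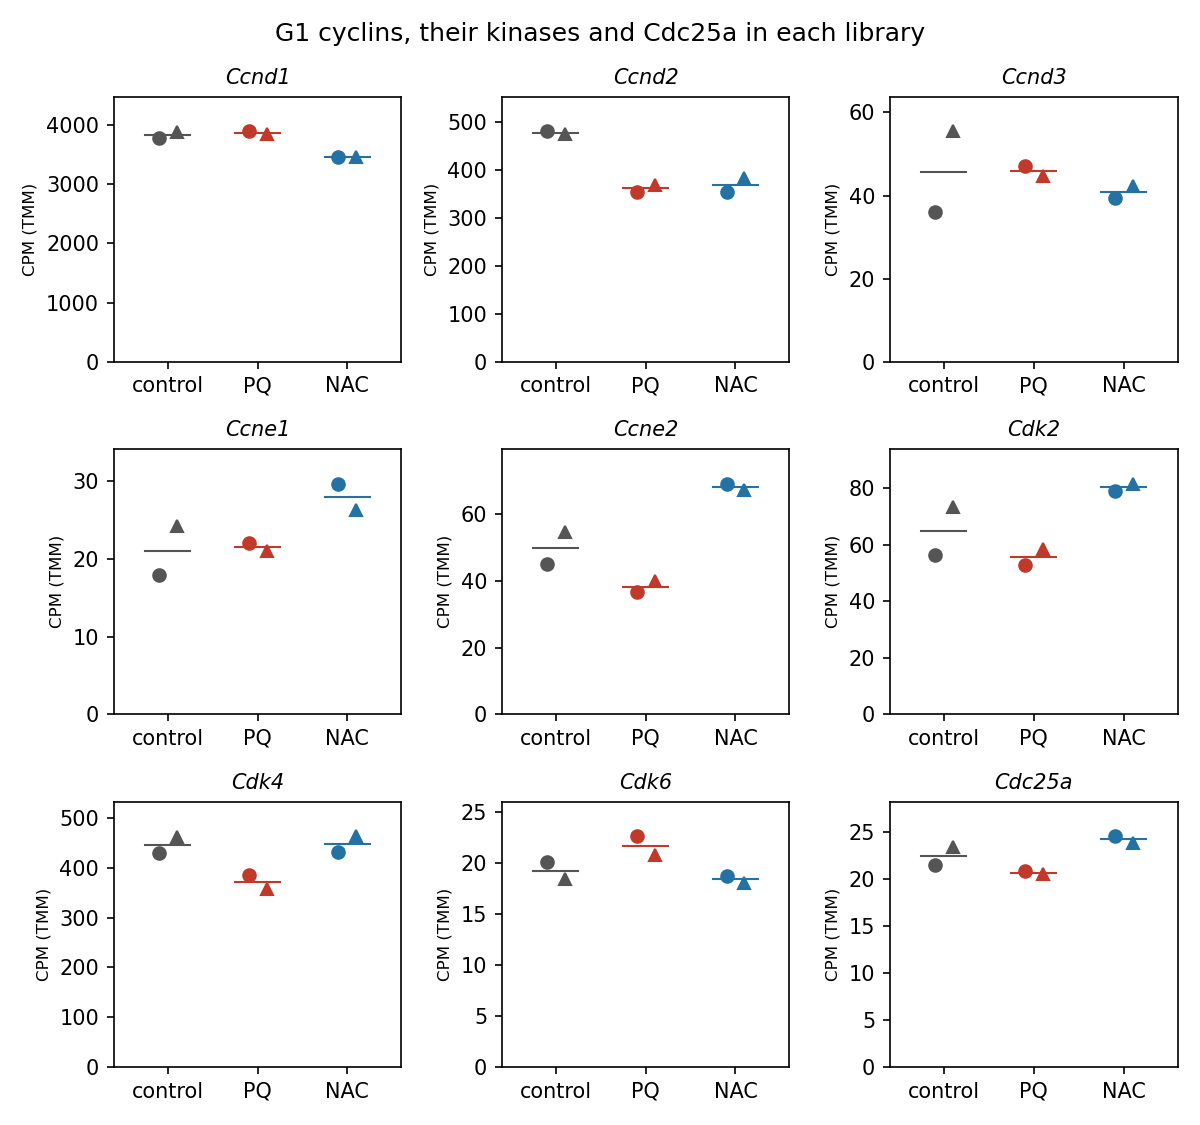
TMM-scaled CPM of each gene (vertical axes start at 0) by group, with replicate 1 as circles, replicate 2 as triangles and the group mean as a line. Both Ccnd2 controls lie above the treated libraries, both Ccne2 PQ libraries lie lowest and both NAC libraries highest, and the Ccnd3 controls enclose the others.

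Cdk4 encodes the main catalytic partner of D-type cyclins (NCBI gene 12567, chr10:126500590-126504976, plus strand, mm9). Its promoter window is shown because Cdk4 fell in PQ. The window runs from 250 bases before to 50 after the RefSeq start (GRCm38.p6, chr10:127063285-127063584, plus strand), 5′ to 3′, with each CACGTG in capitals:

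Cdk4: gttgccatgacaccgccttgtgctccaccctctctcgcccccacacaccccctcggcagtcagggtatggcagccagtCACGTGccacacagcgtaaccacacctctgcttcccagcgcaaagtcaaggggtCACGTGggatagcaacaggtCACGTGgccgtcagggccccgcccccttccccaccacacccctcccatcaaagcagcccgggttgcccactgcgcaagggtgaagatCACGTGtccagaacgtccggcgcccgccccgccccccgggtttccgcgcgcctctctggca

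RefSeq windows were found for 6 of the 9 genes, 7 windows in all since Ccnd3 has a pair, and none was listed for Ccnd1, Ccnd2 and Ccne2. The letters searched on both strands were TTTCGCGC and TTTGGCGC, forms of the E2F site, TTTGAA, the core of the cell cycle homology region, TGACGTCA, the cAMP response element, and CACGTG, an E-box. The E-box letters stood 4 times in the Cdk4 window, starting 172, 118, 98 and 11 bases before the start. The Cdk6 window held them 1 time, and the other members' windows did not hold them. Of the 32851 RefSeq windows, 7.15% held them at least 1 time, which is not a share of windows with 4 copies. These letters were added to the search after the windows had been seen. TTTCGCGC (0.323% of all windows), TTTGAA (17.9%) and TGACGTCA (1.79%) were in 0 of the 7 windows.

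Cdk4 measured 429 and 461 CPM in control 1 and 2, 385 and 356 in PQ 1 and 2, and 432 and 463 in NAC 1 and 2. Both PQ libraries lay below all 4 others, and control and NAC overlapped. Cdk4 fell in PQ against control, with a log2 fold change of -0.26 (SE 0.09, edgeR quasi-likelihood test, BH-adjusted p = 0.0495), and in PQ against NAC, with -0.27 (SE 0.09, edgeR quasi-likelihood test, BH-adjusted p = 0.029). NAC against control gave 0.01 (SE 0.09, edgeR quasi-likelihood test, BH-adjusted p = 0.967).

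The Cdk4 call in PQ against control was at the threshold. Adjusted p ran from 0.0345 to 0.29 over 15 alternatives, 4 of which kept the call, and it was lost without PQ 1, PQ 2, control 2, NAC 1 or NAC 2. The direction held in each alternative, and PQ minus control was -0.16 in the column-kit pair and -0.37 in the TRIZOL pair. Against NAC, the Cdk4 call was lost without any 1 of the PQ or NAC libraries, with log2 fold changes between -0.33 and -0.22. That call was also lost with the protocol as a covariate and with matched sets of libraries as a replicate block, both at -0.27.

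Cdk6 encodes the second kinase of D-type cyclins (NCBI gene 12571, chr5:3343893-3523218, plus strand, mm9). It measured 20.1 and 18.4 CPM in control 1 and 2, 22.6 and 20.8 in PQ 1 and 2, and 18.8 and 18.1 in NAC 1 and 2. Both PQ libraries were the highest of the 6, but the log2 fold change of 0.18 (SE 0.14) against control and of 0.24 (SE 0.14) against NAC missed the threshold (edgeR quasi-likelihood test, BH-adjusted p = 0.432 and 0.215). NAC against control gave -0.06 (SE 0.14, edgeR quasi-likelihood test, BH-adjusted p = 0.805). Cdk6 had 182 to 237 counts per library.

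By FPKM, Cdk4 exceeded Cdk6 by 42.5 ± 4.80 times (SD, n = 2) in control, 31.3 ± 0.162 times in PQ and 44.6 ± 3.41 times in NAC. Both PQ libraries had a lower Cdk4 to Cdk6 ratio, 31.2 and 31.4, than any other library, the lowest of which was control 1 at 39.2. The Cdk6 share of the pair was 3.10% ± 0.0155 in PQ, 2.31% ± 0.254 in control, and 2.32% and 2.08% in NAC 1 and 2. The ratio itself was not tested.

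Ccne1 encodes cyclin E1, which activates CDK2 at the end of G1 (NCBI gene 12447, chr7:38883003-38892553, minus strand, mm9). It measured 17.9 and 24.3 CPM in control 1 and 2, 22.1 and 21.1 in PQ 1 and 2, and 29.7 and 26.3 in NAC 1 and 2. Both NAC libraries lay above the rest, and the PQ libraries lay between the controls. The log2 fold change was 0.03 (SE 0.15) for PQ and 0.41 (SE 0.15) for NAC against control (edgeR quasi-likelihood test, BH-adjusted p = 0.915 and 0.0666), and -0.38 (SE 0.15) for PQ against NAC (edgeR quasi-likelihood test, BH-adjusted p = 0.0645).

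Neither of the last values passed the threshold, and control 2 was 1.35 times control 1. Without control 2, Ccne1 rose in NAC at a log2 fold change of 0.65, while without control 1 it stood at 0.21. Within the TRIZOL libraries, NAC 1 and NAC 2 minus control 2 were 0.29 and 0.12 in log2 CPM. The PQ minus control difference was 0.30 in the column-kit pair and -0.20 in the TRIZOL pair, so its sign differed between protocols.

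Ccne2 encodes cyclin E2, the other partner of CDK2 in late G1 (NCBI gene 12448, chr4:11118498-11131926, plus strand, mm9). It measured 45.2 and 54.8 CPM in control 1 and 2, 36.8 and 39.9 in PQ 1 and 2, and 69.2 and 67.4 in NAC 1 and 2. The 3 groups did not overlap, with PQ lowest and NAC highest. Ccne2 fell in PQ, with a log2 fold change of -0.38 (SE 0.12, edgeR quasi-likelihood test, BH-adjusted p = 0.0271), and rose in NAC, with 0.45 (SE 0.11, edgeR quasi-likelihood test, BH-adjusted p = 0.00779).

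Of the 9 genes, Ccne2 had the widest range over the 6 libraries, 0.91 in log2 CPM. PQ against NAC gave a log2 fold change of -0.83 (SE 0.11, edgeR quasi-likelihood test, BH-adjusted p = 1.93e-05), or 1.78 times less in PQ, and this call held in 15 of 15 alternatives. Within the TRIZOL libraries, PQ 2 minus NAC 1 and NAC 2 was -0.79 and -0.75.

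Against control, the Ccne2 calls were less firm. The fall in PQ was lost without PQ 1 (log2 fold change -0.33), PQ 2 (-0.44) or control 2 (-0.24), and by DESeq2 and limma, while PQ minus control was -0.30 in the column-kit pair and -0.46 in the TRIZOL pair. The rise in NAC was lost without control 1 (0.32), without NAC 1 (0.43) and with the protocol as a covariate (0.36), while NAC 1 and NAC 2 minus control 2 were 0.34 and 0.30 within TRIZOL.

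Summed over both E-type cyclins, FPKM was 23.2 and 29.7 in control 1 and 2, 23.3 and 23.4 in PQ 1 and 2, and 37.8 and 35.9 in NAC 1 and 2. Both NAC libraries exceeded the others, and the PQ libraries lay within the range of the controls. Ccne1 made up 38.6% ± 1.87 (SD, n = 2) of that sum in control, 45.8% ± 2.22 in PQ and 38.1% ± 1.59 in NAC. The Ccne1 share was higher in both PQ libraries than in any other. Summed D-type FPKM was 41.6 ± 6.05 times summed E-type FPKM in control, 47.1 ± 1.16 times in PQ and 27.2 ± 1.33 times in NAC.

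Cdk2 encodes the kinase that cyclin E activates (NCBI gene 12566, chr10:128134995-128142107, minus strand, mm9). Its RefSeq window (GRCm38.p6, chr10:128705002-128705301, minus strand) is given beside that of Cdk4, since both kinases were lower in PQ than in NAC. It has no capitals because none of the 5 motifs was in it:

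Cdk2: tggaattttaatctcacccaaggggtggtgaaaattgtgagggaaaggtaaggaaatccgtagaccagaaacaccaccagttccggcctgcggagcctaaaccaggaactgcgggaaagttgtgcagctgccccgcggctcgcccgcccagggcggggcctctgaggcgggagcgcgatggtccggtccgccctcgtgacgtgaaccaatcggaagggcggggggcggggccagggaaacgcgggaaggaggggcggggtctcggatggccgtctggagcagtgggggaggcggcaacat

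Cdk2 measured 56.2 and 73.2 CPM in control 1 and 2, 52.9 and 58.3 in PQ 1 and 2, and 79.0 and 81.5 in NAC 1 and 2. The NAC libraries were highest, and control and PQ overlapped because control 1 lay below PQ 2. Cdk2 was lower in PQ than in NAC, with a log2 fold change of -0.53 (SE 0.12, edgeR quasi-likelihood test, BH-adjusted p = 0.00194), a call kept in 15 of 15 alternatives. Within TRIZOL, PQ 2 minus NAC 1 and NAC 2 was -0.44 and -0.48 in log2 CPM.

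Against control the log2 fold change of Cdk2 was -0.22 (SE 0.12) for PQ and 0.31 (SE 0.12) for NAC, neither past the threshold (edgeR quasi-likelihood test, BH-adjusted p = 0.222 and 0.0723). Control 2 was 1.30 times control 1, and both values turned on which control was kept. Without control 1, Cdk2 fell in PQ at -0.40 and stood at 0.13 in NAC. Without control 2, it stood at -0.02 in PQ and rose in NAC at 0.51. Within protocols, PQ minus control was -0.09 for the column kit and -0.33 for TRIZOL, and NAC 1 and NAC 2 minus control 2 were 0.11 and 0.16.

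Cdc25a encodes the phosphatase that removes inhibitory phosphates from CDK2 (NCBI gene 12530, chr9:109778083-109796392, plus strand, mm9). Its window (GRCm38.p6, chr9:109875329-109875628, plus strand) is shown because it was the single one of the 7 to hold E2F letters, TTTGGCGC in capitals, from 67 to 60 bases before the start. These letters were in 0.514% of the 32851 windows:

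Cdc25a: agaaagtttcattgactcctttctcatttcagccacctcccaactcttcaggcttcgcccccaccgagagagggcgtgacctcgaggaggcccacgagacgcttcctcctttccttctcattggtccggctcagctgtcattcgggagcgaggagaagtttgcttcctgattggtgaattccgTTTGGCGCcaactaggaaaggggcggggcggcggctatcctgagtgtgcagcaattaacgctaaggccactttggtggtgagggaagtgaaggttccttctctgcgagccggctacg

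Cdc25a measured 21.4 and 23.3 CPM in control 1 and 2, 20.8 and 20.5 in PQ 1 and 2, and 24.5 and 23.8 in NAC 1 and 2. The order PQ, control, NAC held without overlap, as it did for Ccne2, but over a range of 0.26 in log2 CPM. The log2 fold change was -0.12 (SE 0.14) for PQ, 0.11 (SE 0.13) for NAC and -0.23 (SE 0.13) for PQ against NAC, none past the threshold (edgeR quasi-likelihood test, BH-adjusted p = 0.603, 0.628 and 0.216). No alternative brought Cdc25a past it, at 196 to 264 counts per library.

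**Figure D3:**
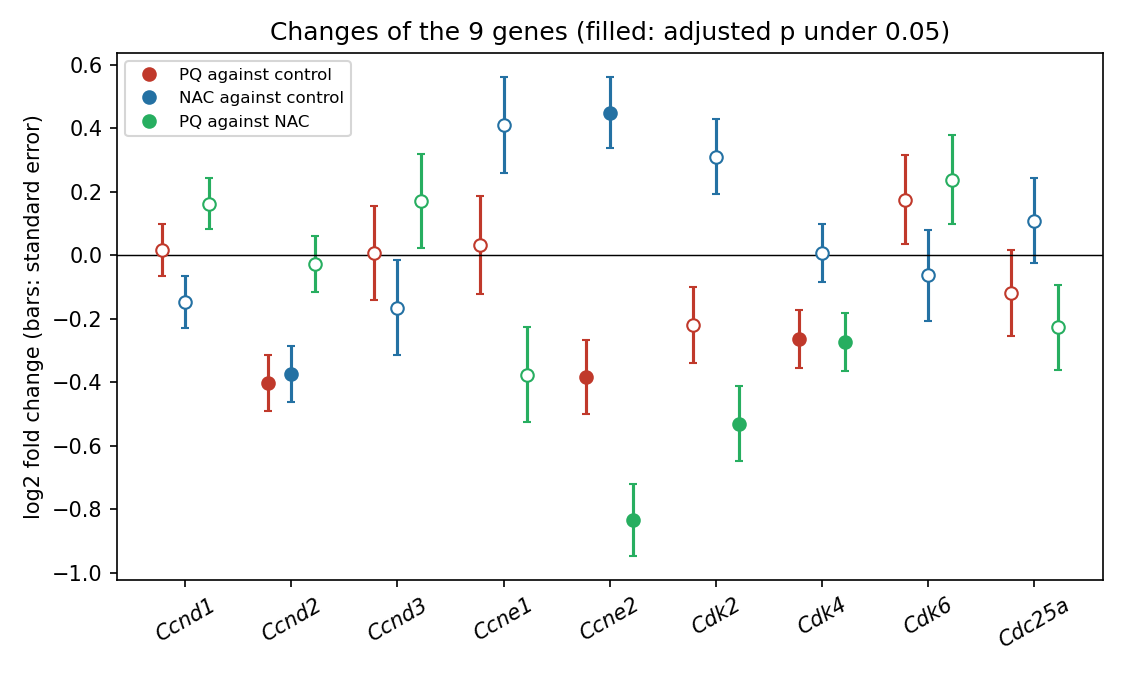
Log2 fold change of each gene in the 3 comparisons, with bars for the standard error and filled points for adjusted p under 0.05. Ccne2 shows the widest spread, from -0.83 for PQ against NAC to 0.45 for NAC against control, and Ccnd2 lies near -0.4 in both treatments.

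Set side by side, Ccnd2 was lower in both treatments, Ccne2 and Cdk2 differed most between PQ and NAC, and Cdk4 was lowest in PQ. Ccnd1, Ccnd3, Ccne1, Cdk6 and Cdc25a passed the test in none of the 3 comparisons. The median log2 fold change of the 9 genes was -0.12 for PQ against control, 0.01 for NAC against control and -0.23 for PQ against NAC, beside medians within 0.01 of 0 over all genes tested.

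For 5 members the annotation places another gene on the opposite strand with shared exon bases, and whether strand was used in counting is not given in the sources used here, so reads of the overlapping ends are uncertain. The share of a member's exon bases was 21.3% for Ccnd1 (with Oraov1), 18.6% for Cdk4 (Tspan31), 17.4% for Ccne2 (Ints8), 15.7% for Ccnd3 (Bysl) and 1.61% for Cdk6 (Gm17590). Tspan31, beside Cdk4, and Ints8, beside Ccne2, passed the test in none of the 3 comparisons. Tspan31 stood at 81.17 to 100.17 FPKM where Cdk4 stood at 261 to 349. Ints8 stood at 20.64 to 27.55 FPKM where Ccne2 stood at 12.23 to 23.0. The log2 fold change of Ints8 was -0.08 for PQ and 0.20 for NAC against control, and -0.28 for PQ against NAC. How far reads of these genes enter the Cdk4 and Ccne2 values was not tested. Oraov1, listed as LTO1, rose in PQ at a log2 fold change of 0.54 (edgeR quasi-likelihood test, BH-adjusted p = 0.0163), at 7.80 to 13.8 FPKM where Ccnd1 stood at 911 to 1028. Oraov1 was also higher in PQ than in NAC (0.53, edgeR quasi-likelihood test, BH-adjusted p = 0.0109) and stood at 0.01 in NAC against control.

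By likeness of profile, measured as the root mean square difference of centred log2 CPM over the 6 libraries, the nearest genes to Ccne2 were Gfpt2 (0.055), Wdhd1 (0.058), Fndc4 (0.062), Lifr (0.062) and D430020J02Rik (0.066). Those nearest to Ccne1 were Cand1 (0.057), Foxk1 (0.068), Zc3h8 (0.069), Gnaz (0.070) and Pou2f1 (0.073). Cdk2 had C2cd2 (0.035), Obsl1 (0.057), Grk6 (0.061), D130017N08Rik (0.062) and Sesn1 (0.062). These are the 3 members with the widest range over the libraries.

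The CDK inhibitors bind CDKs encoded by these genes, or the complexes that those CDKs form with cyclins. Cdkn1a, which encodes p21, measured 474 and 467 CPM in control 1 and 2, 1090 and 1035 in PQ 1 and 2, and 223 and 255 in NAC 1 and 2. It rose in PQ (log2 fold change 1.17, SE 0.09, edgeR quasi-likelihood test, BH-adjusted p = 2.8e-07) and fell in NAC (-0.98, SE 0.09, edgeR quasi-likelihood test, BH-adjusted p = 6.05e-07), and the groups did not overlap. By FPKM, Cdkn1a exceeded Cdk2 by 9.13 ± 1.89 times (SD, n = 2) in control, 23.5 ± 2.30 times in PQ and 3.64 ± 0.235 times in NAC. Relative to summed E-type cyclins it stood at 9.30 ± 1.64, 23.9 ± 1.28 and 3.45 ± 0.477 times.

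Of the 6 inhibitors tested, 1 rose and 1 fell in PQ, beside 9.76% of all genes tested that rose and 9.45% that fell. Cdkn2c, an inhibitor of CDK4 and CDK6, fell in PQ (-0.65, SE 0.12, edgeR quasi-likelihood test, BH-adjusted p = 0.00119). Cdkn2d stood at -0.30 in PQ and -0.32 in NAC, Cdkn1b (p27) at -0.22 and -0.06, Cdkn2a at -0.29 and -0.29, and Cdkn2b at -0.39 in NAC, none past the threshold. For PQ against control, Cdkn1b passed in 1 of 15 alternatives, over which its log2 fold change ran from -0.33 to -0.09.

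The list of 3 pocket proteins, the substrates of cyclin D and cyclin E kinases, had 1 that fell in PQ, Rbl1 (-0.58, SE 0.10, edgeR quasi-likelihood test, BH-adjusted p = 0.000634). Rb1 stood at 0.06 in PQ and -0.29 in NAC, Rbl2 at -0.09 and 0.25, and Rbl1 at -0.13 in NAC, none of them past the threshold. Of 10 E2F and DP factors, 2 fell in PQ by edgeR, the repressors E2f8 (-0.96) and E2f7 (-0.46, kept in 7 of 15 alternatives), and 1 by DESeq2 and by limma, while E2f1 stood at -0.35, just outside. In NAC 3 rose by edgeR and 2 by DESeq2 and by limma, and E2f1 fell (-0.63) by each tool. Those 3 were E2f7 (0.55), E2f3 (0.35) and Tfdp1 (0.28), with calls kept in 13, 4 and 6 of 15 alternatives. By edgeR, 9.45% of all genes tested fell in PQ, and 9.01% rose and 9.64% fell in NAC.

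Downstream of cyclin E and CDK2, 14 of 14 E2F-linked S-phase genes fell in PQ by edgeR, 13 by DESeq2 and 11 by limma, with a median log2 fold change of -0.63, among them Mcm5 (-0.92), Mcm6 (-0.90) and Mcm2 (-0.86). Over all genes tested, 9.45% fell in PQ, and 9.01% rose in NAC. This list, like the others, was chosen with earlier results of these data known, so its counts are a description. In NAC 3 of the 14 rose by edgeR, among them Cdc6 (0.60) and Mcm4 (0.49), with a median of 0.15, and 3 by DESeq2 and by limma. In NAC 1 of the 14 was lower by DESeq2, where edgeR and limma gave 0, and edgeR gave 1 at an unadjusted p under 0.05. Of 8 genes for S, G2 and M cyclins, CDK1, CKS2, CDC25B and CDC25C, 7 fell in PQ (median -0.50), among them Ccnb2 (-0.91), Ccna2 (-0.82) and Cdk1 (-0.53). None of those 8 passed in NAC by edgeR, DESeq2 or limma, and 1 was lower at an unadjusted p under 0.05. In NAC the log2 fold changes were -0.28 for Cdc25c, 0.11 for Ccnf, 0.10 for Ccnb1, 0.04 for Cdk1 and -0.01 for Ccna2.

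Of 8 genes that act on CDKs (kinases, the CDK7 partners Ccnh and Mnat1, and the chaperone Cdc37), 3 fell in PQ by edgeR and DESeq2 and 2 by limma. By edgeR these were Pkmyt1 (-1.07), Chek1 (-0.76), which marks CDC25A for destruction, and Wee1 (-0.36), and in NAC Mnat1 stood at -0.36, Cdc37 at -0.23 and Wee1 at 0.20. Of 12 genes for the turnover of cyclins and CDC25A, 3 fell in PQ by edgeR, Fbxo31 (-0.54), Cks1b (-0.52) and Skp2 (-0.40), and 1 by DESeq2 and by limma. Over all 11717 genes tested, 9.45% fell in PQ by edgeR, and 849 genes by DESeq2. The call of Cks1b was kept in 14 of 15 alternatives, that of Fbxo31 in 8 and that of Skp2 in 5. In NAC Fbxo4 stood at -0.41, Skp2 at 0.31 and Skp1 at 0.17. In NAC no gene of either list passed by edgeR, DESeq2 or limma, and at an unadjusted p under 0.05 there were 2 lower in the first and 1 higher and 1 lower in the second.

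Upstream, Myc, a transcription factor that acts on Ccnd2 and Cdk4, rose in NAC (0.71, SE 0.10, edgeR quasi-likelihood test, BH-adjusted p = 4.09e-05) and stood at -0.06 in PQ. Of the 5 genes for growth factor receptors, MYC and MAX tested, Fgfr3 fell in PQ (-1.01), where Egfr stood at -0.23 and Fgfr1 at -0.20, and in NAC Egfr and Max both stood at 0.24. Over all genes tested, 9.45% fell in PQ and 9.01% rose in NAC by edgeR. Mycn, Fgfr2 and Cdkn1c were too low to be tested, and Mycn had 9 to 31 counts per library.

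**Figure D4:**
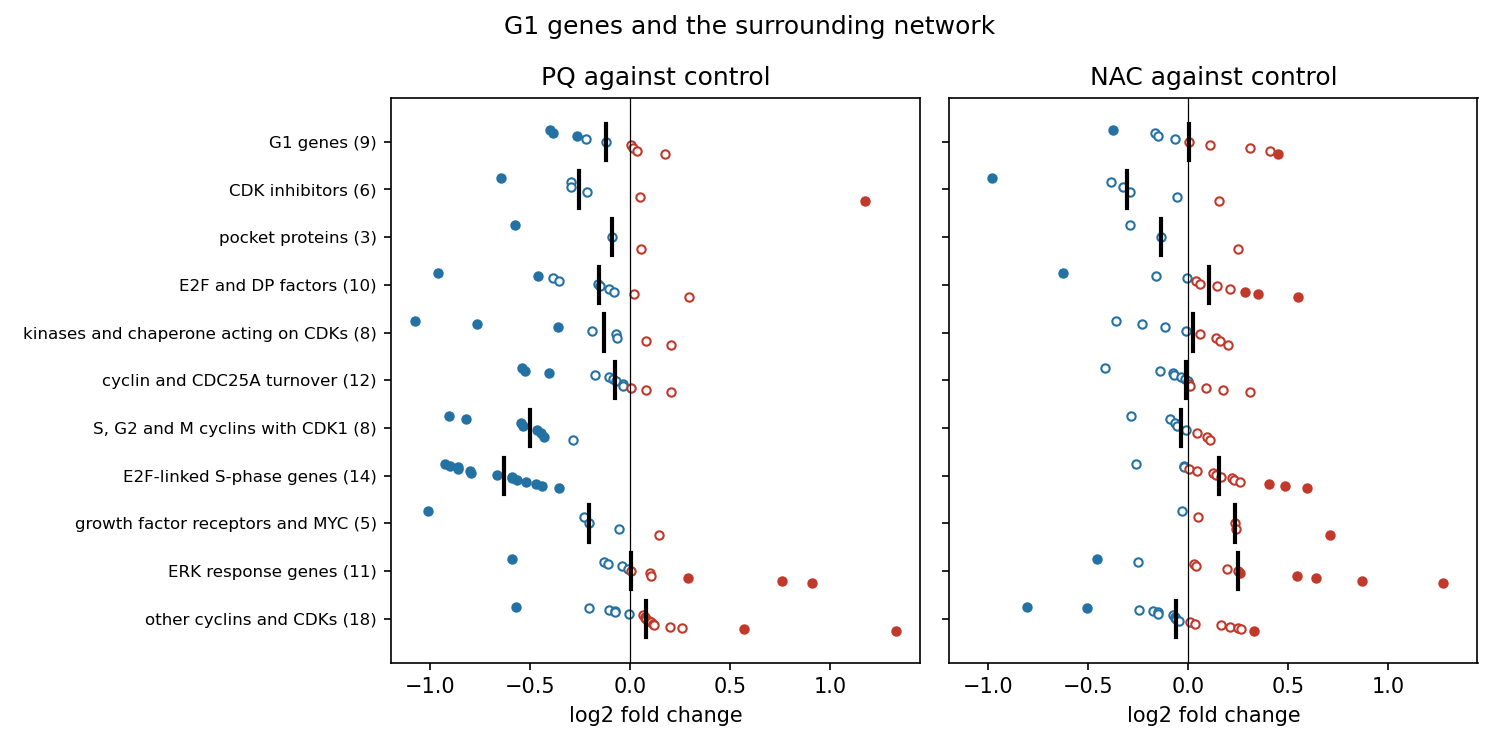
Log2 fold change of each gene tested in the 9 G1 genes and 10 surrounding lists, for PQ (left) and NAC (right) against control, with 1 point per gene, filled where adjusted p was under 0.05, red above and blue below 0, and a bar at each list's median. The 14 S-phase genes lie below 0 in PQ and spread around 0.15 in NAC, while the 9 G1 genes lie on both sides of 0 in each.

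Markers of the labelled cell type were present. The 6 stem and progenitor markers summed to 1110 and 1033 FPKM in control 1 and 2, 1093 and 1047 in PQ 1 and 2, and 1180 and 1074 in NAC 1 and 2, with Fabp7 the most abundant. Oligodendrocyte lineage markers summed to 651 and 752 in control, 767 and 665 in PQ and 814 and 924 in NAC. Olig1 was the most abundant of them by mean over the libraries, although in control 1 Olig2 stood at 320.65 and Olig1 at 320.37. Sox10 was at or under the floor of 3 counts, and Olig1 and Pdgfra rose in NAC. Astrocyte markers summed to 4.39 to 4.63 in control, 6.02 to 6.75 in PQ and 9.53 to 9.64 in NAC, of which Gfap and Aqp4 rose in NAC and Aldh1l1 rose in PQ (1.17) and stood at -0.49 in NAC. Gfap was the most abundant of the 4 in control and NAC, and Aldh1l1 in PQ. Neuron markers summed to 38.02 and 35.68 in control, 33.5 and 34.6 in PQ and 65.2 and 58.5 in NAC, nearly all of it Map2, which rose in NAC (0.77), with Rbfox3 and Stmn2 at or under the floor. Microglia markers stayed under 4.6, with P2ry12 higher in NAC (1.18) and Aif1 and Csf1r at or under the floor, and endothelial and fibroblast markers under 2.3. Tubb3, too low to be tested, stood at 2.38 and 1.30 FPKM in control, 0.72 and 0.47 in PQ and 0.32 and 0.44 in NAC. The part of cell makeup in the values of the 9 genes was not tested.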

How the data were processed

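Per-gene tables for 6 libraries of cultured murine NSPCs were used, 2 each for control, PQ and NAC, grouped by their labels. The tables hold an expected count and an FPKM per gene, as deposited by the authors, in the column layout of RSEM. The submitters' processing notes name TopHat2 2.0.11, Cufflinks 2.1.1, bcl2fastq 2.17 and cutadapt with mm9 for control 1 and PQ 1, and HISAT2 2.0.4, Bowtie2 2.2.5 and RSEM with mm10 for the other 4, and the study's methods name mm9, TopHat, Cufflinks and a stranded kit. These accounts differ, and strand use in counting is not given in the sources used here. For the last 4 libraries the labels list both rRNA depletion and oligo dT selection.

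Symbols were assigned from NCBI gene numbers for 17199 of 17254 genes (99.7%). Expected counts (78.6% to 79.1% of them whole as deposited) were rounded, scaled by TMM and fitted with edgeR 4.0.16 in R 4.3.3 (quasi-likelihood, group means over all 6 libraries, two-sided) for genes whose mean FPKM reached 1. Benjamini-Hochberg adjustment ran over all 11717 genes, with a threshold of 0.05. Standard errors were taken as the log2 fold change over the square root of F. The fit was tested on simulated data. Log2 CPM used a prior count of 2.

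Alternatives were DESeq2 1.42.0 in place of edgeR, its size factors, no filter, the labelled protocol as a covariate, a replicate block, the 4 libraries compared alone, leaving out each library, and limma 3.58.1 on log2(FPKM + 1) and log2(FPKM + 0.1). Replicate numbers were given in accession order and pair nothing. With 9680436 to 10698241 counts per library, floors of 3 counts cover counting error only. Gene positions are those of GENCODE vM1 on mm9, and promoter windows those of RefSeq on GRCm38.p6. No coordinates were converted. The E-box letters were added to the motif search after the windows had been seen.

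The members and lists were chosen with earlier results of these data known. Named genes are the 9 members, and of each list the 3 with the smallest adjusted p in PQ and in NAC against control, with Cdkn2a, Cdkn1a, Cdkn1b, Rb1, Cdk1, Ccna2, Myc and Mycn. Tfdp1 and the overlapping genes were named after their values were seen. The values of 1 gene that this rule names are not reported here.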

Additional observations from a re-analysis of the deposited data

How the results depend on the processing

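Of 27 member values (9 genes in 3 comparisons), 10 kept their direction and their side of the threshold under all 15 alternatives. Over all single alternatives, 355 of 405 values kept both, 28 lost the call, 11 gained it and 11 changed sign, and the cause was not tested. The Ccne2 and Cdk2 calls in PQ against NAC were lost under none. By limma, 1 member was lower in PQ against control with either pseudocount, where edgeR gave 3, and network genes higher in PQ than in NAC were 5 with either, where edgeR gave 9. Members higher in NAC against control were 3 without the filter and 0 with the protocol covariate. Without the filter, more genes were tested and Ccne1 passed in NAC against control (0.41) and PQ against NAC (-0.38, also with the 4 libraries alone), as did Cdk2 in NAC against control (0.31). In PQ against NAC, Ccne1 passed in 4 of 15 alternatives. Ccne2 lost its call in PQ against control by DESeq2 (-0.38) and limma (-0.33 and -0.35), and in NAC against control with the protocol covariate (0.36). Cdk4 lost its call in PQ against control with the protocol covariate (-0.26), the 4 libraries alone (-0.26) and limma (-0.24 and -0.24), and in PQ against NAC with the protocol covariate (-0.27). With the protocol covariate Cdk6 in NAC against control was 0.000338 and Cdk1 -0.0015, and by limma Ccna2 in NAC was 0.034 with either pseudocount. The Cdk6 share of Cdk4 and Cdk6 in PQ was 3.13% by count per length.

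Leaving out each library, members lower in PQ against control ran from 0 (without PQ 1) to 4 (without control 1), members higher in NAC from 0 (without control 1 or NAC 1) to 3 (without control 2), and members lower in NAC from 0 (without NAC 1) to 2 (without control 1). Network genes lower in PQ ran from 22 (without PQ 1) to 34, those higher in NAC from 6 (without NAC 1) to 14, and those higher in PQ than in NAC from 4 (without PQ 2) to 10. Log2 fold changes in PQ against control ran from -0.43 to -0.37 for Ccnd2, -0.52 to -0.24 for Ccne2, -0.32 to -0.21 for Cdk4, -0.40 to -0.017 for Cdk2, -0.0015 to 0.033 for Ccnd1, -0.27 to 0.35 for Ccnd3, -0.17 to 0.27 for Ccne1, -0.15 to 0.041 for Myc and -0.032 to 0.15 for Rb1. In NAC against control they ran from -0.43 to -0.32 for Ccnd2, -0.44 to 0.18 for Ccnd3, 0.21 to 0.65 for Ccne1, 0.32 to 0.60 for Ccne2, 0.13 to 0.51 for Cdk2, -0.043 to 0.061 for Cdk4, -0.13 to 0.0015 for Cdk6, -0.17 to 0.068 for Cdkn1b and -0.089 to 0.065 for Ccna2. In PQ against NAC they ran from -0.082 to 0.030 for Ccnd2, -0.46 to -0.28 for Ccne1 and -0.33 to -0.22 for Cdk4. A lone library was assumed to vary like the other groups.

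The labels give no shared replicate numbers, and 2 sets of 1 control, 1 PQ and 1 NAC library were matched through the study's source z-scores over 106 genes. With the set as a replicate block, genes lower in PQ against control numbered 878 in place of 1107, and Cdk4 lost its calls in PQ against control (-0.27) and against NAC (-0.27). Deviations of the libraries of a set had r = -0.146 for control and NAC, -0.0791 for control and PQ and 0.106 for PQ and NAC across genes, and a crossed replicate block was added after seeing the data, and it gave 2 members higher in NAC against control and 2 lower in PQ, with Cdk2 past the threshold in NAC (0.32) and Cdk4 not in PQ (-0.26).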

Other observations

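Of 18 other cyclins and CDKs tested, 2 rose and 1 fell in PQ against control, where 9.76% of all genes tested rose and 9.45% fell. In NAC 1 rose by edgeR and 0 by DESeq2 or limma, 3 were higher at an unadjusted p under 0.05, and 2 fell by each tool. By edgeR, 9.01% of all genes tested rose in NAC and 9.64% fell. Ccng1, a p53-linked cyclin, rose in PQ (log2 fold change 1.33, SE 0.10, edgeR quasi-likelihood test, BH-adjusted p = 2.18e-07) and fell in NAC (-0.50, adjusted p = 0.00151 by the same test). Ccng2 fell in both, at -0.57 in PQ and -0.81 in NAC, as Ccnd2 did, against the same control libraries. Cdk5, a kinase known for its roles in neurons, rose in PQ (0.57), and Cdk8 rose in NAC (0.33) at an edgeR adjusted p of 0.0468, a call kept in 5 of 15 alternatives.

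Of 11 ERK response genes, 3 rose and 1 fell in PQ against control, where 9.76% of all genes tested rose and 9.45% fell. In NAC 5 of them rose and 1 fell, where 9.01% of all genes tested rose and 9.64% fell. Fosl1, Fos and Egr1, immediate early genes, stood at 0.91, 0.76 and -0.59 in PQ, each past the threshold of edgeR's test. In NAC, Fos (1.28), Spry1 (0.87) and Dusp6 (0.64) rose, the last pair feedback inhibitors of ERK signalling, while Egr1 rose (0.55) and Fosl1 fell (-0.46). Ccnd1, a mitogen-induced cyclin, passed in neither comparison.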
